A study of Mus musculus with 3 samples.

Results

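RNA levels of genes that write, remove and read DNA methylation outside replication were examined in fibroblasts lacking Rb1 and Atm. The members were the probes whose RefSeq accession belongs to Dnmt3a, Dnmt3b, Tet1, Tet2, Tet3, Tdg, Mbd1, Mbd2 or Mbd4. Of these 9 genes, 8 were matched by 17 probes, among 20010 named genes and 39404 probes on the array. No probe was matched to Tet1 through the accession table used here, and Tet1 was not analysed. All but 1 of the 17 probes, a dim Tet3 probe, were well above background on all 3 arrays, a mark that the scanner software sets per spot.

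All cells were primary fibroblasts (MEFs) of embryonic day 10 from C57BL/6J mice of the genotype Rb-/-;ATM-/-, so by its label the control also lacks both genes. The Dnmt1 shRNA group had received a vector for a short hairpin RNA against Dnmt1. The ATM vector group had received an ATM expression vector, and the empty-vector group the vector alone. Each was selected in puromycin at 4 ug/ml for 3 days, grown for 4 more days and hybridised, with the Cy3 dye, to 1 Agilent array. The labels describe the Dnmt1 shRNA and ATM vector cells as made from the empty-vector control's parental cells, and they do not give the promoter of any vector. With 1 array per group no test was possible, and so small a number of arrays sets the precision of every difference.

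Cytosine methylation at CG dinucleotides is copied after replication by DNMT1 and laid down anew by DNMT3A and DNMT3B. TET enzymes oxidise 5-methylcytosine to 5-hydroxymethylcytosine and further, and the glycosylase TDG cuts out the more oxidised bases, so that base excision repair can restore cytosine. Proteins with a methyl-CpG binding domain, among them MBD1, MBD2 and MBD4, bind methylated DNA and recruit repressors or, for MBD4, excise thymine from mismatches that arise at methylated sites. In most differentiated cells TET2 and TET3 are more widely expressed than TET1, and DNMT3B is best known from the early embryo.

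Probes well above background made up 59.6% of the Dnmt1 shRNA array, 55.0% of the ATM vector array and 55.1% of the empty-vector array. The 75th percentile of the processed signal was 2061, 2101 and 2312 intensity units on these arrays in the same order, and each array's log2 values were taken relative to it. A log2 ratio below is therefore a difference of scaled log2 signals, whereas signals are given unscaled. The Dnmt1 probe, which checks the knockdown, read 956 intensity units on the Dnmt1 shRNA array, 3169 on the ATM vector array and 4908 on the empty-vector array, a log2 ratio of -2.19 for the knockdown and -0.49 for the ATM vector. Atm had 2 probes, of which the first was not well above background and the other read 366, 409 and 430 intensity units in the same order, a log2 ratio of 0.06 for the ATM vector. Where these probes lie relative to the deletion or the vector insert is not given in the sources used here, so they do not check the ATM labels. The same holds for the Rb1 probe, which was well above background on all 3 arrays at 782, 460 and 541 intensity units, with log2 ratios of 0.70 for the Dnmt1 shRNA and -0.10 for the ATM vector. The Dnmt1 shRNA and empty-vector arrays shared slide 1 and scan 1, and the ATM vector array was alone on slide 2 and scan 2, so slide and ATM vector cannot be told apart. Of 10 fibroblast markers, 10, 10 and 9 were well above background on the Dnmt1 shRNA, ATM vector and empty-vector arrays, and Thy1, at 1218, 44.3 and 31.8 intensity units, was the exception. Epithelial markers above background numbered 6, 4 and 4 of 8, and their summed signals of 6653, 5602 and 5610 intensity units hide unlike genes. Krt8 read 742, 9.87 and 9.50 and Krt18 1341, 8.74 and 15.3 intensity units on the 3 arrays, well above background with the Dnmt1 shRNA alone. Krt14 read 296, 4491 and 78.3 and Krt19 4094, 899 and 5351 intensity units, whereas Epcam and Cldn4 were not well above background. Germ cell markers numbered 2, 0 and 0 of 6, namely Tex101 at 1463, 17.5 and 21.5 and Sycp3 at 79.4, 34.0 and 16.7 intensity units, and Dazl and Ddx4 were not well above background. Blood markers numbered 3, 4 and 3 of 8. The haemoglobin genes were high with the ATM vector: Hbb-bh1 read 15.4, 2050 and 8.03 and Hba-a1 28.3, 2020 and 26.9 intensity units. Csf1r, at 4751, 1580 and 1997, and Itgam, at 9346, 8468 and 9529 by their brightest probes, were above background on all 3 arrays. Both of these and Ptprc were the 3 of 5 measured blood markers with ratios below 0 for the ATM vector. Endothelial markers numbered 2 of 6 on each array, Pecam1 and Kdr, with log2 ratios of 0.85 and 0.60 for the ATM vector. Pluripotent cell markers numbered 4, 4 and 3 of 8, with Nanog, Lin28a and Tdgf1 above background on all 3 arrays and Pou5f1 and Sox2 on none. In bulk RNA, fewer cells of a type and less RNA per cell cannot be told apart. The part of these markers in the results below was not tested.

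The promoter windows of Tet2, Tdg and Mbd4 are shown because these 3 genes had the Dnmt1 shRNA ratios that lay beyond 2 times their technical error, and because CG dinucleotides are the sites that DNMT1 maintains. Each is the run of 250 bases before the transcript start, 5′ to 3′ on the gene's strand, from RefSeq promoters on GRCm38.p6, with CG dinucleotides in capitals. The Tet2 window lies at chr3:133544391-133544640 on the minus strand, the Tdg window at chr10:82629588-82629837 on the plus strand and the Mbd4 window at chr6:115853342-115853591 on the minus strand.
Tet2: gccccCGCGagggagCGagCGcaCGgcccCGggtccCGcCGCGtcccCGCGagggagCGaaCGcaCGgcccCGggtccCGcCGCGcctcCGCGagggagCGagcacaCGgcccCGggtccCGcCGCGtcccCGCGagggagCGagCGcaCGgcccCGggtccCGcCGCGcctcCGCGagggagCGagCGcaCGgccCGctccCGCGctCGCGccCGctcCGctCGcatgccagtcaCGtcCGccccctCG
Tdg: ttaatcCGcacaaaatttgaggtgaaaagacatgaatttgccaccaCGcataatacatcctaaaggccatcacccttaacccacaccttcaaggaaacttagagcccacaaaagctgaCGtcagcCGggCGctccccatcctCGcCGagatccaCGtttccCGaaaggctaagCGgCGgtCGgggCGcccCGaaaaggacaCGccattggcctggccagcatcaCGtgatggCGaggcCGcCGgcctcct
Mbd4: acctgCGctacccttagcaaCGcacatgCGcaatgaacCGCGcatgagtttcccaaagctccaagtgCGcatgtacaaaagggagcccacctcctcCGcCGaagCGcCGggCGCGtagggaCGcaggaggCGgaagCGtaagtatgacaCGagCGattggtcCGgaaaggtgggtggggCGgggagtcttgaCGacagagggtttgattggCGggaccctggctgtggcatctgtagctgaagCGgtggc
The Tet2 window held 51 CG dinucleotides, a number reached by 0.067% of the 32851 mouse windows of this length, whose median was 6. The longest run of bases found at least 5 times in it was CCGCGAGGGAGCGA, which recurred every 42 bases and was found on either strand in 1 of the 32851 windows, that of Tet2 itself. This search was made after the window was seen. The Tdg window held 19 and the Mbd4 window 22 CG dinucleotides, numbers reached by 19.7% and 14.8% of all windows. Divided by the number that its C and G content predicts, the count was 1.19 for Tet2, 0.97 for Tdg and 0.95 for Mbd4. Values at least that high were found in 0.73%, 7.38% and 8.41% of all windows, in the same order. Among the other members in the promoter table, the Dnmt3b window held 21, the Tet3 window 17, the Tet1 window 15, and the 3 alternative Dnmt3a windows 38, 40 and 15. At least 1 CG was present in 92.1% of all windows. Methylation itself was not measured, and these counts describe the sequence only.

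The members had a median log2 ratio of -0.04 with the Dnmt1 shRNA and of -0.29 with the ATM vector, where 7 of 8 were below 0. Over all genes measured on both arrays the medians were -0.03 and 0.03, and 47.6% were below 0 with the ATM vector. In the Dnmt1 shRNA array Tet2 was higher (log2 ratio 0.63) and Tdg and Mbd4 were lower (-0.44 and -0.42). In the ATM vector array Dnmt3a (-0.79), Tet2 (-0.54), Mbd2 (-0.46) and Dnmt3b (-0.43) were lower, and Tdg (0.36) was higher at 1 of its 3 probes. These are the ratios beyond 2 times the technical error, and 5 members with the Dnmt1 shRNA and 3 with the ATM vector stayed within it. No member differed by 2-fold in either comparison. Among all 13785 genes measured on at least 1 of the 2 arrays, 7.86% were at least 2-fold higher and 1.83% at least 2-fold lower in the Dnmt1 shRNA array, and with the ATM vector it was 8.68% and 8.08% of 13242. The members were measured on both arrays of each comparison, and among genes of that kind the shares were 3.51% and 0.748% of 12573 in the Dnmt1 shRNA array and 6.2% and 4.63% of 12162 in the ATM vector array. With 8 members a count of 0 is close to what these shares give. At a lower limit of 1.5-fold, chosen after the values were seen, Tet2 was the 1 member higher in the Dnmt1 shRNA array and none was lower, against 13.3% and 3.96% of genes measured on at least 1 array and 8.18% and 2.9% of those measured on both. With the ATM vector none was higher and Dnmt3a was the 1 member lower, against 16.6% and 14.6%, or 14.1% and 11.3% of genes measured on both. Scaling each array to its median in place of its 75th percentile moved the median of all genes by -0.24 in the Dnmt1 shRNA array, which leaves Tet2 at 0.40 and turns the small positive ratios of Dnmt3a and Mbd1 to -0.03 and -0.10. With that scaling Dnmt3b and Mbd2, at -0.30 each, were lower beyond technical error.

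**Figure D1:**
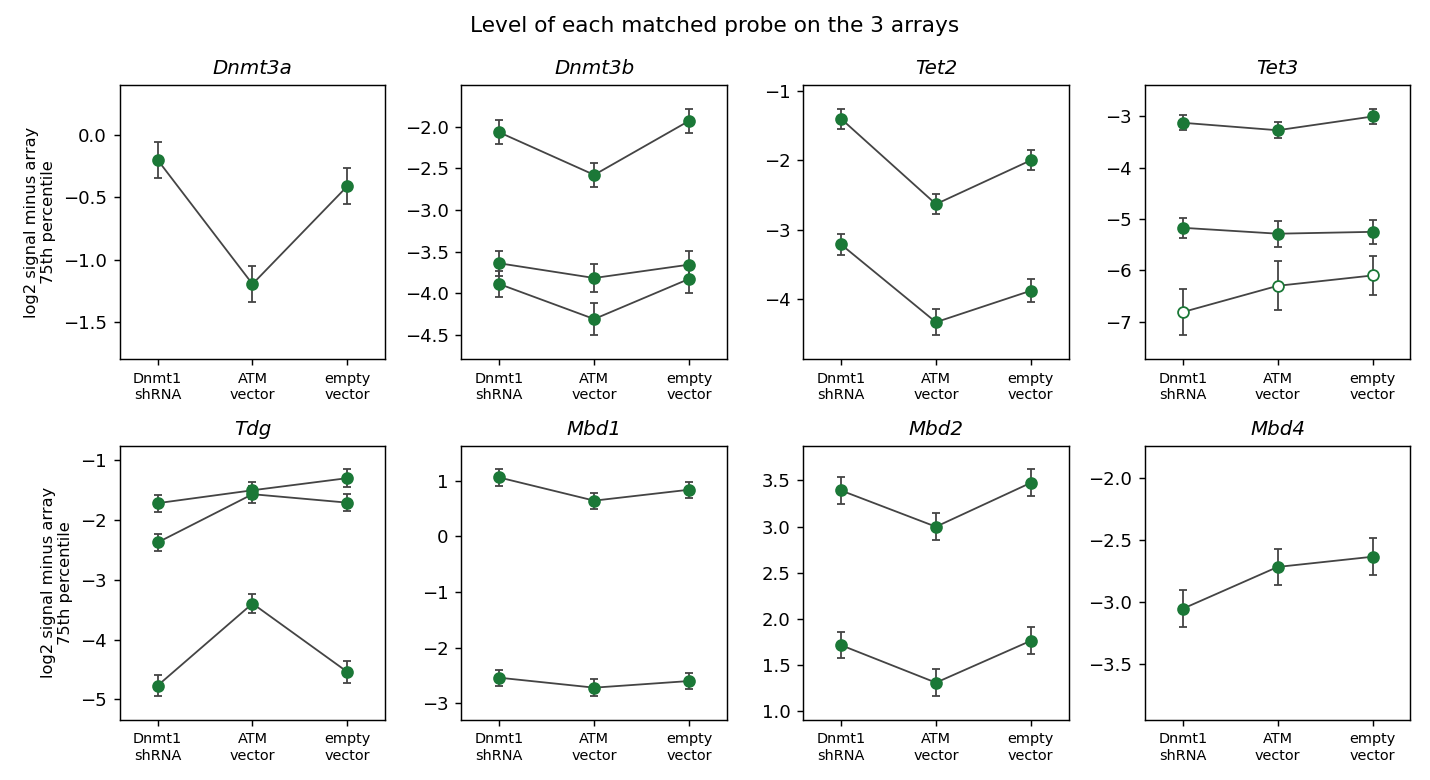
Level of each matched probe (log2 processed signal minus the array's 75th percentile, y axis, at a scale of its own for each gene) on the Dnmt1 shRNA, ATM vector and empty-vector arrays. Lines join the values of 1 probe, bars are the scanner software's error of a spot, and open circles are not well above background, which holds only for the dimmest Tet3 probe. Both Tet2 probes are highest on the Dnmt1 shRNA array and lowest on the ATM vector array.

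Dnmt3a encodes a de novo methyltransferase that is active in many somatic cells, and its single probe was the member most lowered in the ATM vector array. It read 1796 intensity units on the Dnmt1 shRNA array, 918 on the ATM vector array and 1741 on the empty-vector array. The ATM vector array was thus the low one, and the other 2 lay close together. The log2 ratio was -0.79 ± 0.20 in the ATM vector array and 0.21 ± 0.20 in the Dnmt1 shRNA array, where ± is the scanner software's technical error. That error describes a spot and not a culture, and it leaves out the spread between probes of a gene. A gap between arrays is called beyond technical error where it exceeds 2 times this technical error. By that measure the ATM vector array lay below the empty-vector array, and the Dnmt1 shRNA and empty-vector arrays were not separated.

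Dnmt3b, its relative in de novo methylation, had 3 probes of the same accession. Its brightest probe read 491 intensity units on the Dnmt1 shRNA array, 351 on the ATM vector array and 606 on the empty-vector array. The second read 165, 149 and 183, and the third 139, 106 and 163, in the same order of arrays. All 3 probes were lowest on the ATM vector array, with log2 ratios against the empty-vector array of -0.65, -0.16 and -0.48 and a mean of -0.43 ± 0.13. For the brightest probe the ATM vector array lay below both other arrays beyond technical error, and for the other 2 probes no pair of arrays was separated. The Dnmt1 shRNA array gave -0.14, 0.02 and -0.06, a mean of -0.06 ± 0.13, within technical error except with median scaling. Dnmt1 RNA was at 21.8% of its scaled control level on that array.

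Tet2 encodes a dioxygenase that oxidises 5-methylcytosine, and it was the member with the widest range over the 3 arrays, 1.18 on the log2 scale. Its brighter probe read 781 intensity units on the Dnmt1 shRNA array, 339 on the ATM vector array and 578 on the empty-vector array. Its other probe read 222, 104 and 157 in the same order. Both probes placed the arrays in the same order, with the Dnmt1 shRNA array highest and the ATM vector array lowest. Against the empty-vector array the Dnmt1 shRNA log2 ratios were 0.60 and 0.67, a gene ratio of 0.63 ± 0.15 or 1.55-fold higher. The ATM vector log2 ratios were -0.63 and -0.45, a gene ratio of -0.54 ± 0.16 or 1.46-fold lower. The gap between the Dnmt1 shRNA and empty-vector arrays was beyond technical error for both probes, and that between the ATM vector and empty-vector arrays for the brighter probe only.

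Tet3, another TET dioxygenase, was level across the arrays. Its brightest probe read 235 intensity units on the Dnmt1 shRNA array, 217 on the ATM vector array and 287 on the empty-vector array, and its second probe 57.2, 53.8 and 60.7. Neither probe separated any pair of arrays beyond technical error. The gene ratio was -0.02 ± 0.19 with the Dnmt1 shRNA and -0.15 ± 0.20 with the ATM vector. The third probe read 18.4, 26.7 and 33.7 intensity units, not well above background.

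Tdg encodes thymine DNA glycosylase, which removes the oxidised bases that TET enzymes produce. All 3 of its probes were lower in the Dnmt1 shRNA array than in the empty-vector array, whereas in the ATM vector array they disagreed. The brightest probe read 626 intensity units on the Dnmt1 shRNA array, 741 on the ATM vector array and 939 on the empty-vector array. The second read 397, 708 and 707, and the third 75.5, 199 and 99.2. The Dnmt1 shRNA array was thus the lowest for every probe, and the ATM vector array was clearly highest for the third, level with the empty-vector array for the second and between the other arrays for the first. In the Dnmt1 shRNA array the log2 ratios were -0.42, -0.67 and -0.23, a gene ratio of -0.44 ± 0.13 or 1.35-fold lower. That gap was beyond technical error for the brightest and the second probe but not for the third. With the ATM vector the probes gave -0.20, 0.14 and 1.14, so the gene ratio of 0.36 ± 0.13 rests on the dimmest probe, and without it the mean of the other 2 was -0.03. A spread over 0.5 among a gene's probes was seen in 18.5% of 3162 genes with several measured probes in this comparison. The Tdg probes spread well past that limit. Their log2 ratios had an SD of 0.70, against a pooled SD of 0.34 over those genes. The probes carry the same accession, and their positions in the transcript are not given in the files.

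**Figure D2:**
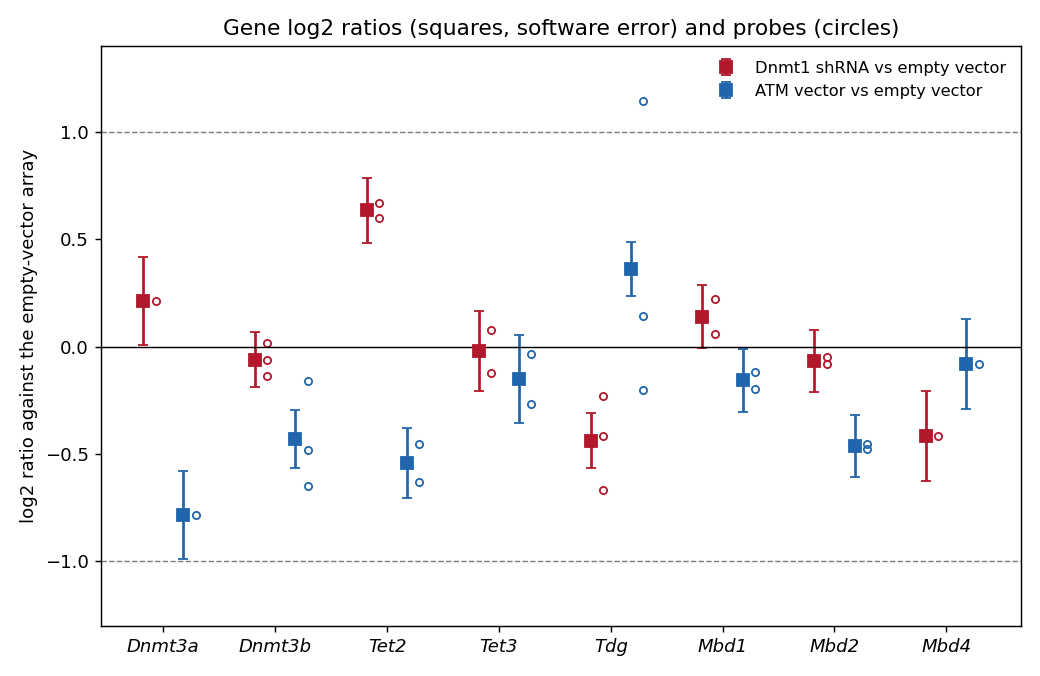
Gene log2 ratios (squares, y axis) of the 8 measured members in the Dnmt1 shRNA and ATM vector arrays, each against the empty-vector array, with the scanner software's technical error as bars and single probes as circles. Dashed lines mark 2-fold. No square reaches 2-fold, and the dimmest Tdg probe in the ATM vector array, at 1.14, is the 1 circle beyond it.

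The methyl-CpG readers Mbd1 and Mbd2 differed little in the Dnmt1 shRNA array. Mbd2 encodes a subunit of one form of the NuRD repressor complex, which joins histone deacetylation to nucleosome remodelling. Its brighter probe read 21620 intensity units on the Dnmt1 shRNA array, 16790 on the ATM vector array and 25687 on the empty-vector array, and its other probe 6774, 5211 and 7853. Both probes were lowest on the ATM vector array and similar on the other 2. The ATM vector log2 ratios were -0.48 and -0.45, both beyond technical error, and gave a gene ratio of -0.46 ± 0.14 or 1.38-fold lower. The Dnmt1 shRNA log2 ratios were -0.08 and -0.05, a gene ratio of -0.07 ± 0.14, within technical error.

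Mbd1 encodes a reader that recruits histone H3 lysine 9 methylation through SETDB1 and its cofactor ATF7IP. Its brighter probe read 4297 intensity units on the Dnmt1 shRNA array, 3282 on the ATM vector array and 4138 on the empty-vector array, and the other probe 355, 319 and 381. The brighter probe put the Dnmt1 shRNA array above the ATM vector array only just beyond technical error, and neither probe separated either of them from the empty-vector array. The gene ratio was 0.14 ± 0.15 with the Dnmt1 shRNA and -0.16 ± 0.15 with the ATM vector.

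Mbd4 encodes a protein with both a methyl-CpG binding domain and a glycosylase domain that removes thymine or uracil opposite guanine. Its single probe read 248 intensity units on the Dnmt1 shRNA array, 319 on the ATM vector array and 372 on the empty-vector array. It was thus lowest with the Dnmt1 shRNA. The log2 ratio was -0.42 ± 0.21 or 1.34-fold lower in the Dnmt1 shRNA array, only just beyond 2 times its error, and -0.08 ± 0.21 in the ATM vector array. With the 75th percentile taken over probes above background on all arrays it was -0.37, within 2 times its error, so the Mbd4 call depends on that choice. Genes of cycling cells had a median log2 ratio of -0.27 in that array, with 9 of 10 below 0, against 54.7% of all genes measured on both arrays, and 0 of 10 were 1.5-fold lower. All 10 were well above background on every array. Their summed signal was 205958 intensity units on the Dnmt1 shRNA array, 230173 on the ATM vector array and 281034 on the empty-vector array. With the ATM vector their median was -0.11, and 8 of 10 were below 0, against 47.6% of all genes measured on both arrays. The part of cell cycling in the member values was not tested.

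Over the 8 measured members the median log2 ratio was -0.04 in the Dnmt1 shRNA array, with 3 above and 5 below 0. All genes measured on both arrays had a median of -0.03 there, with 54.7% below 0. For the ATM vector array the member median was -0.29, with 1 above and 7 below 0. All genes measured on both arrays had a median of 0.03 there, with 47.6% below 0. Where both arrays of a comparison had measured a gene, the middle 50% of log2 ratios ran from -0.20 to 0.18 in the Dnmt1 shRNA array, and the lowest and highest 5% lay below -0.47 and above 0.82. The same limits were -0.29 and 0.35, and -0.95 and 1.15, in the ATM vector array. In the Dnmt1 shRNA array Tet2, Tdg, Mbd4 and Dnmt3a lay outside the middle 50% but short of the outer 5%. Of these, Dnmt3a, at 0.21, was within technical error. In the ATM vector array Dnmt3a, Tet2, Mbd2, Dnmt3b and Tdg (0.36) lay outside the middle 50% but short of the outer 5%. By definition 50% of all genes lie outside the middle 50%, so such a place is common. Both comparisons share the empty-vector array, so a high or low value there enters both.

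**Figure D3:**
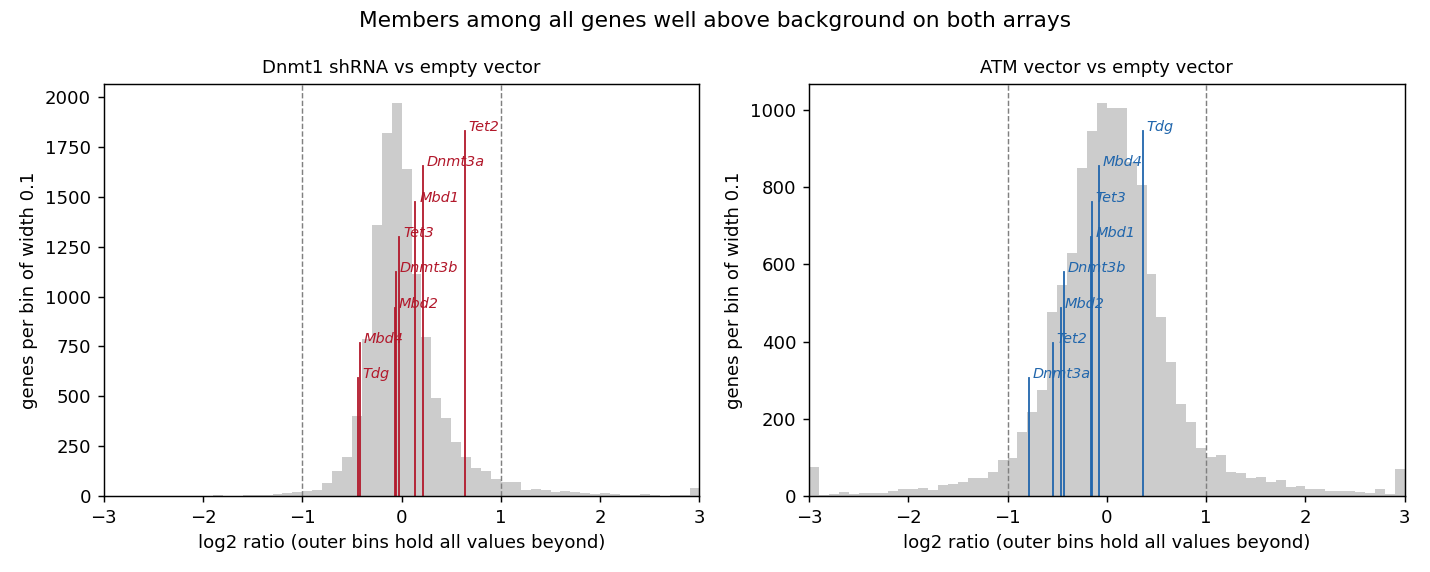
Distribution of gene log2 ratios (x axis) over all genes measured above background on both arrays of a comparison, in bins of width 0.1 (y axis, genes per bin), with the 8 measured members as vertical lines of arbitrary height. The spread over all genes is wider in the ATM vector array, and every member lies between the dashed 2-fold lines in both panels.

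The other genes of the pathway were read from 6 lists with 78 genes. In the Dnmt1 shRNA array, Mbd5 was the 1 gene of 73 measured that was at least 2-fold higher and Dnmt1 itself the 1 that was lower, and the median was -0.07. Under the ATM vector, Gadd45a and Chd5 were at least 2-fold higher and Nsd1 and Mbd5 at least 2-fold lower among 71 measured, and the median was 0.05. All genes called here were measured on both arrays, where the shares of all genes were 3.51% and 0.748% with the Dnmt1 shRNA and 6.2% and 4.63% with the ATM vector.

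Mbd5, which encodes a protein with a methyl-CpG binding-like domain, differed in opposite directions, as Tet2 did. It read 1158 intensity units on the Dnmt1 shRNA array, 266 on the ATM vector array and 617 on the empty-vector array, with log2 ratios of 1.07 and -1.08 against the last. Its Dnmt1 shRNA ratio fell short of 2-fold with median scaling and with the normexp background correction. The ATM vector ratio of Mbd5 ran from -1.12 to -0.83 over the other settings, so it did not stay past 2-fold throughout either. Its list held other methyl-CpG readers together with proteins that carry a methyl-CpG binding or similar domain. In that list Zbtb4, a zinc finger reader, stood at 0.50 in the Dnmt1 shRNA array. Mbd6, a relative of Mbd5, stood at 0.84 in the ATM vector array. Of the 10 genes of that list measured, 6 were above 0 and 4 below 0 in each comparison. Over the other settings the count below 0 ran from 4 to 7 with the Dnmt1 shRNA and from 4 to 6 with the ATM vector. Among all genes measured on both arrays, 45.3% were above 0 with the Dnmt1 shRNA and 52.4% with the ATM vector. Among 70 pathway genes measured on all 3 arrays, the 3 whose pair of log2 ratios lay closest to that of Tet2 were Cxxc5, Zbtb4 and the histone methyltransferase gene Setd2, at distances of 0.44, 0.52 and 0.63 on the log2 scale over these 3 arrays. Cxxc5, a CXXC-domain protein, stood at 0.23 with the Dnmt1 shRNA and -0.71 with the ATM vector. Zbtb4 stood at 0.50 and -0.05 and Setd2 at 0.10 and -0.21, against 0.63 and -0.54 for Tet2. The 2 Zbtb4 probes differed in sign with the ATM vector, at -0.19 and 0.10. Over the other settings the Zbtb4 ratio with the Dnmt1 shRNA ran from 0.03 to 0.54. These genes are thus the nearest of the 70, and not close copies of the Tet2 pattern.

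Maintenance genes other than Dnmt1 had small ratios in the Dnmt1 shRNA array, with the chromatin remodeller Hells at -0.45 and Uhrf2, a relative of the DNMT1 recruiter UHRF1, at -0.39. The ATM vector array had Trdmt1, a tRNA methyltransferase despite its resemblance to DNA methyltransferases, at -0.71 and Zfp57, which protects imprints, at 0.23. The list of genes for TET supply and regulation also held Gadd45 and cytidine deaminase genes, which are not TET suppliers. Its highest ratios in the Dnmt1 shRNA array were of this second kind, the stress-induced Gadd45g at 0.90 and the cytidine deaminase Apobec1 at 0.81. Gadd45a, a damage-induced gene that has been linked to active demethylation, read 10933 intensity units on the ATM vector array, against 1496 on the empty-vector array, and was 8.04-fold higher, while Gadd45g stood at 0.81.

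Base excision repair genes encode other glycosylases beside TDG and MBD4 and the enzymes that act after them. Of 18 measured in the Dnmt1 shRNA array, 16 were below 0, against 51.2% of all genes measured on at least 1 array. For genes measured on both arrays, as 17 of these 18 were, the share was 54.7%. The median of the 18 was -0.18 and 0 were at least 1.5-fold lower. Over the other settings of scaling and filtering the count below 0 ran from 11 to 16. Parp1, a sensor of strand breaks, stood at -0.53, Apex2 at -0.49 and Apex1, the main abasic endonuclease, at -0.48. With the ATM vector 10 of 17 were below 0, against 47.6% of all genes measured on both arrays, and the median was -0.04. The largest ratios there were those of Lig3, a DNA ligase, at -0.87, Mutyh, a glycosylase, at -0.57 and Apex1 at -0.48. Of 12 NuRD genes, all measured on both arrays, 11 were below 0 in the Dnmt1 shRNA array with a median of -0.12. The share of all such genes below 0 was 54.7%, and over the other settings 8 to 11 of the NuRD genes were. The remodeller Chd3 stood at -0.56 and the histone chaperone Rbbp4 at -0.34, and Chd5, a remodeller best known from neurons, at 0.87. The ATM vector array had 6 above and 6 below 0, where 47.6% of all genes measured on both arrays were below 0. Chd5 was 3.31-fold higher there, at 173 intensity units against 57.6 on the empty-vector array, Mta1 stood at -0.54 and the deacetylase Hdac2 at 0.31. That log2 ratio of Chd5 ran from 0.99 to 1.73 over the other settings, just short of 2-fold at its lowest.

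Histone methyltransferases and their partners had a median over 14 genes of -0.15 with the Dnmt1 shRNA, where 9 were below 0, and of 0.02 with the ATM vector, where 6 were. Among all genes measured on both arrays, 54.7% and 47.6% were below 0 in the same order. Nsd1 methylates a lysine of histone H3 that DNMT3A then binds. It read 2280 intensity units on the Dnmt1 shRNA array, 1124 on the ATM vector array and 3583 on the empty-vector array, as means of 2 probes, with log2 ratios of -0.54 and -1.53. Nsd2, a related enzyme, stood at -0.34 and -0.61 in the Dnmt1 shRNA and ATM vector arrays. Suv39h1, a lysine 9 methyltransferase, stood at -0.38 in the Dnmt1 shRNA array. Atf7ip, the cofactor that links MBD1 to SETDB1, stood at -0.98 in the ATM vector array, where it read 2671 intensity units against 5794 on the empty-vector array.

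**Figure D4:**
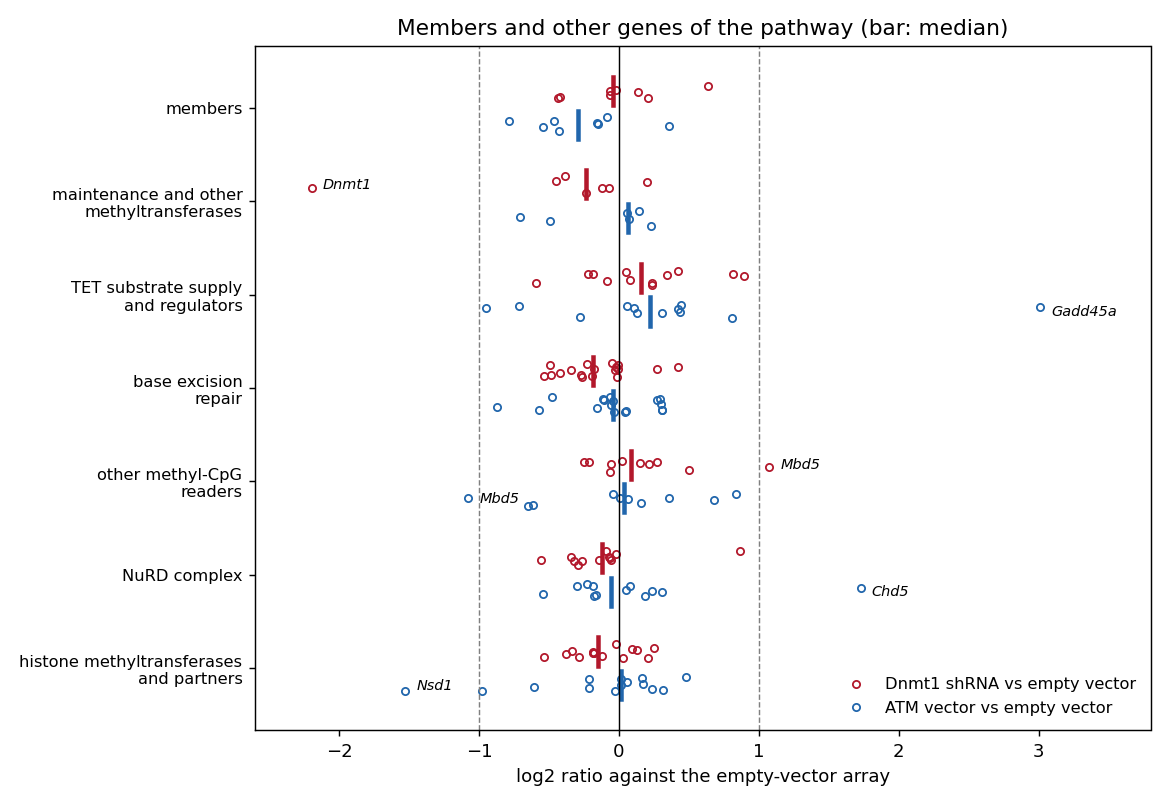
Log2 ratios against the empty-vector array (x axis) of the 8 measured members and of the measured genes in 6 lists of the pathway (y axis), for the Dnmt1 shRNA and ATM vector arrays, with 1 circle a gene and a bar at the median of each list. Genes past the dashed 2-fold lines are named, and no member is among them.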

How the data were processed

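The 3 arrays, 1 per group, were grouped by the transfection label. Processed signals are intensity values on a linear scale that the authors deposited from Agilent Feature Extraction 10.7.3.1, per the file headers and the submitters' processing notes. The software had removed local background with a spatial detrend, and no scaling between arrays is recorded, per the file headers. The deposited series matrix held the same intensities within 0.495%. Other quantities used were the deposited marks of 0 or 1 for signal well above background and for outlier spots, per the file headers. Spot intensities are not reads, so no sequencing depth applies.

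Outlier spots and controls were removed, log2 signals were averaged over a probe's spots, and each array's 75th percentile was subtracted. Probes had to be well above background on 1 or both of the 2 arrays compared, and their log2 ratios were averaged per gene. Probes were named through unversioned RefSeq accessions and a RefSeq table of GRCm38.p6: 26412 of 39429 probes matched 1 symbol and 13017 none. The 25 probes with no spot left on an array after outlier removal were dropped, which leaves 39404. The array design was placed on mm9, per the file headers, so no probe coordinates are given. The technical error combines the software's signal errors of the spots compared. Repeated spots of 1 probe had a median SD of 0.047, 0.051 and 0.045 (log2) on the Dnmt1 shRNA, ATM vector and empty-vector arrays. Different probes of a gene spread more. The pooled SD of their log2 ratios was 0.21 with the Dnmt1 shRNA and 0.34 with the ATM vector, against a median technical error of 0.20 in both comparisons. All 9 members and Dnmt1 are named, with up to 3 genes per list and comparison that had the largest absolute log2 ratio among those measured on both arrays with probes of 1 sign. Genes past 2-fold are named as well, and some genes that this rule picks are not reported here. The members and lists were chosen with earlier results of these data known. The calculation was tested on simulated data with changes larger than 2-fold, which no member reached. That test does not cover ratios of the members' size. Python 3.11.15, numpy 2.4.6, pandas 2.3.3, R 4.3.3 and limma 3.58.1 were used.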

Additional observations from a re-analysis of the deposited data

How the results depend on the processing

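Member ratios, medians and fold counts, list medians, counts below 0 and named pathway ratios were recomputed under 10 other settings of scaling, background correction, dim-probe filter, probe choice, outlier handling and source. The settings with normexp on the median spot signal, which stands in for the mean spot signal planned, and with probes measured on both arrays were chosen after seeing the data. No paired analysis was possible because there was 1 array per group, and leaving out a replicate was not possible for the same reason. No member reached 2-fold in either direction under any of the 10 settings. Scaling to the median moved the median of all genes by -0.24 in the Dnmt1 shRNA array; the ratios of Dnmt3a and Mbd1 then stood at -0.03 and -0.10. Under the 10 settings Tet2 ranged from 0.40 to 0.68, Tdg from -0.68 to -0.40 and Mbd4 from -0.66 to -0.37 in the Dnmt1 shRNA array. In the ATM vector array Dnmt3a ranged from -0.83 to -0.57, Tet2 from -0.63 to -0.39, Mbd2 from -0.51 to -0.40 and Dnmt3b from -0.65 to -0.42. Tdg in the ATM vector array reversed to -0.20 with the brightest probe alone, which by construction leaves out the dimmest probe, and was 0.10, within technical error, with normexp. Members at least 1.5-fold higher and lower numbered 0 to 1 and 0 to 2 with the Dnmt1 shRNA, and 0 and 0 to 3 with the ATM vector. None of the 18 pathway ratios of either comparison that the naming rule picks changed sign, but that rule picks the largest ratios of these data. With the Dnmt1 shRNA the list medians for TET supply and for other readers each changed sign in 1 setting. With the ATM vector those of the maintenance and base excision repair lists did so in 1 setting each. The list of other readers did so in 2 settings there and the histone methyltransferase list in 4. The member median in the Dnmt1 shRNA array was -0.28 with median scaling, -0.11 with quantile normalization and -0.10 with the brightest probe; in the ATM vector array it was -0.37 with the brightest probe. Pathway genes past 2-fold upward with the Dnmt1 shRNA numbered 0 with median scaling and with normexp and 2 with quantile normalization, and 2 were lower with no filter on dim probes. In the ATM vector array normexp gave 1 higher and 1 lower. Genes of the whole array past 2-fold upward with the Dnmt1 shRNA, 1083 as reported, numbered 382 with normexp, 361 on probes measured on all 3 arrays and 441 on probes measured on both, and those lower, 252, numbered 84, 60 and 94, or 565 with no filter. In the ATM vector array 1150 higher and 1070 lower became 696 and 664 with normexp, 746 and 563 on all 3 arrays and 754 and 563 on both. The cause was not tested where the setting itself does not remove genes or probes. Dim probes, near the lowest signals well above background of 25.1, 32.7 and 37.8 intensity units on the Dnmt1 shRNA, ATM vector and empty-vector arrays, limit what can be read from the dimmer Tet3 probes.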
